A study of Mus musculus with 4 samples.

Results

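Glycolysis and the response to low oxygen were followed through 36 named genes in colon tumours, of which 34 are listed among the 14979 genes of the count table. All 34 had enough counts to be tested, together with 14331 genes in all. Pfkm and Eno2 are not analysed here. The genes were chosen by name, with earlier results of these data known. By role the genes were 17 enzymes of the glycolytic chain, pyruvate dehydrogenase with 3 of its kinases and 2 bifunctional regulators of phosphofructokinase. The others were 4 enzymes of fructose use and gluconeogenesis, 3 genes of the oxygen sensor and 6 hypoxia targets.

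The tumours arose in mice of the AOM/DSS model of inflammatory colorectal cancer, in which the carcinogen azoxymethane and the colitis-inducing polymer dextran sulfate sodium were combined. Mice of the MAdCAM1 group received an antibody against MAdCAM-1, an adhesion molecule of gut venules that binds lymphocytes carrying the α4β7 integrin, and mice of the IgG group received a control IgG antibody. Both groups carried tumours and both had gone through the AOM/DSS model, and no untreated colon was measured. Strain, age and dose are not given in the labels. Each group held 2 mice with 1 library each, named here MAdCAM1 1, MAdCAM1 2, IgG 1 and IgG 2. RNA was measured by CAGE, in which each tag is the start of a single capped RNA, so that levels need no division by transcript length. Levels are given as CPM, that is, tags scaled to a common library size with TMM factors, and a positive log2 fold change means higher in MAdCAM1.

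Glycolysis splits glucose into pyruvate, which either enters mitochondria through pyruvate dehydrogenase or is reduced to lactate. Tumours often favour the lactate branch together with enzyme isoforms such as HK2, PKM and LDHA. When oxygen is short, prolyl hydroxylases stop marking HIF-1α for destruction, and the stabilised factor binds DNA at a short core, spelled ACGTG or GCGTG, and switches on most glycolytic enzymes, the kinases that close pyruvate dehydrogenase, and vessel growth factors. The colon surface is low in oxygen even in health, and its absorptive cells draw much of their energy from bacterial butyrate. Fructose use and gluconeogenesis belong to differentiated small intestine, liver and kidney.

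No single gene passed the test. At a Benjamini-Hochberg adjusted p of 0.05, the quasi-likelihood fit of edgeR called 0 of the 34, against 0% of all genes called higher and 0% called lower. At an unadjusted p under 0.05 the same test had 3 of the 34 (Hk2, Egln3 and Ankrd37, all higher), against 5.09% of all genes higher, 1.82% lower and 6.92% in either direction. The exact test of edgeR called 0 of the 34, against 1.06% of all genes higher, 0.0628% lower and 1.12% in either direction. DESeq2 also called 0, against 1.53% of all genes higher, 0.14% lower and 1.67% in either direction, and limma-voom called 0, against 0%. The statements below therefore rest on the level in each library. Values of both MAdCAM1 libraries lay above both IgG libraries for 13 of the 34 genes (38.2%), against 19.7% of all genes, and below both for 1 gene, Fbp1 (2.94%), against 18.7% of all genes (38.4% of all genes in either direction). These counts depend on the scaling, since with library size alone they were 7 higher and 4 lower, against 13.6% and 28.7% of all genes. The median log2 fold change was 0.19 over the 34 genes and −0.001 over all genes tested, and it was 0.09 and −0.10 with library size alone.

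Depth was similar, at 14850923 to 16891234 tags a library, but most markers of some cell types did not overlap between the groups. Over all genes tested, 19.7% were higher and 18.7% lower without overlap. The quasi-likelihood test and limma-voom called 0 markers in every set below. The exact test called 4 goblet, 4 colonocyte and 1 neutrophil marker, against 1.12% of all genes. DESeq2 called 5, 4 and 1 of these, and 2 epithelial markers, against 1.67% of all genes. Of 7 epithelial markers, 6 were higher in both MAdCAM1 libraries, and their summed level was 8642 and 7368 CPM in the MAdCAM1 libraries against 5604 and 4910.5 CPM in the IgG libraries. Goblet cell markers were higher for 7 of 7 (10258 and 7199.7 against 2652 and 1155 CPM) and absorptive colonocyte markers for 6 of 7 (1127 and 716 against 389 and 226 CPM). B and plasma cell markers were higher for 2 of 3, at 45.2 and 518.5 CPM in MAdCAM1 and 17.2 and 38.1 CPM in IgG, mostly through MAdCAM1 2. Neutrophil markers gave 1 higher and 1 lower of 5 tested, and summed to 333 and 937 CPM in MAdCAM1 and 358 and 606 CPM in IgG. The higher one, Ly6g, had 126 and 188 CPM in MAdCAM1 and 55.9 and 35.99 CPM in IgG. The lower one, Retnlg, had 11.1 and 13.4 CPM in MAdCAM1 and 16.7 and 58.6 CPM in IgG. T cell markers (0 of 3) and endothelial markers (0 of 4) overlapped between the groups, as did the stromal sets. Fibroblast markers summed to 265 and 1019 CPM in MAdCAM1 and 241 and 756 CPM in IgG, with 0 of 6 apart. Macrophage markers summed to 127 and 488 CPM in MAdCAM1 and 140.3 and 479.7 CPM in IgG, with 0 of 4 apart. Smooth muscle markers summed to 88.3 and 1489 CPM in MAdCAM1 and 1332 and 74.3 CPM in IgG, with 0 of 4 apart. None of the listed markers in these sets was at 0 in all libraries. In bulk tumours, fewer cells of a type and less RNA per cell cannot be told apart, and the part of these cell types in the values below was not tested.

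Promoter sequences are shown for Ankrd37 and Egln3, the hypoxia genes with the smallest p among the 34, because both windows hold the HIF core. Each window runs from 250 bases before to 50 bases after the annotated RefSeq start, 5′ to 3′ on the gene's strand, with the core in capitals wherever it lies on either strand. By exact match to GRCm39 the Ankrd37 window lies at chr8:46452838-46453137 (minus strand) and the Egln3 window at chr12:54250611-54250910 (minus strand).
Ankrd37: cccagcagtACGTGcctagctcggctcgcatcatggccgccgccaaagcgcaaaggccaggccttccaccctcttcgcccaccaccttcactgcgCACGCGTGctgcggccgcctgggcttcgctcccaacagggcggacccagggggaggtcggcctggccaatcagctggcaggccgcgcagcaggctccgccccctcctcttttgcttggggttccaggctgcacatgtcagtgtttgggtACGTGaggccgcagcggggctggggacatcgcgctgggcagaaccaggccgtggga
Egln3: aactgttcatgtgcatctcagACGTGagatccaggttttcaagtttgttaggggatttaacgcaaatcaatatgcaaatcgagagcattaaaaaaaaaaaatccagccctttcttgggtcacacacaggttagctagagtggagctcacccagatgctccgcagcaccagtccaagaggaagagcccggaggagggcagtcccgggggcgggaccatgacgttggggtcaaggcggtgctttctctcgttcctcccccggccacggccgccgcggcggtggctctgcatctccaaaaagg
The Ankrd37 window has 4 matches, which begin at −241, −155, −152 and −6 from the start, and those at −155 and −152 overlap in CACGCGTG. The Egln3 window has 1 match, at −229. The RefSeq start of the Ankrd37 window lies 5857 bases inside the outermost start that GENCODE gives the gene, and that of the Egln3 window 13 bases from it. A window of Vegfa that also holds the core lies 7220 bases inside the gene's outermost start and is not printed. The other Vegfa window has 0 matches.

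At least 1 window held the core for 30 of the 33 genes with a window in the RefSeq table, including 8 of 8 genes of the oxygen sensor and the hypoxia targets and 22 of 25 others. Ndrg1 has no window there. The core is common, since 67.2% of 10247 tested genes with a window and 43.8% of all windows of the same length hold it on either strand. It is also part of the longer motif CACGTG, which other factors recognise. That motif is held by 7 of the 33 genes and by 1189 of the 10247 tested genes with a window. Several genes have more than 1 window, and base composition was not matched, so the shares describe letters and not binding.

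Hexokinases carry out the first step of glycolysis, which traps glucose as glucose-6-phosphate. Hk2 (chromosome 6, 82699740 to 82751469, GRCm39), the inducible isoform of growing and tumour cells, had 138 and 109.9 CPM in MAdCAM1 and 86.9 and 76.7 CPM in IgG. Both MAdCAM1 libraries were above both IgG libraries, and MAdCAM1 1 was the highest. The log2 fold change was 0.60 (SE 0.18, n = 2 per group; edgeR adjusted p = 0.691). Hk1, the widely expressed isoform, had 45.3 and 51.0 CPM in MAdCAM1 against 44.8 and 25.1 CPM in IgG. The groups did not overlap, but MAdCAM1 1 and IgG 1 were nearly level and with library size alone the groups overlapped. The log2 fold change of Hk1 was 0.46 (SE 0.32; edgeR adjusted p = 0.834) with all libraries and 0.098 without IgG 2. Hk2 made up 75.3% and 68.3% of the tags of Hk1 and Hk2 in MAdCAM1 and 66.0% and 75.3% in IgG. The 95% Wilson intervals ran from 64.0% to 77.4% and cover counting error only. The balance of the pair did not follow the groups.

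Phosphofructokinase commits sugar to glycolysis. Pfkp, the platelet isoform that many tumours use, had 77.5 and 98.5 CPM in MAdCAM1 and 76.1 and 34.4 CPM in IgG. Its log2 fold change was 0.67 (SE 0.43) with all libraries and 0.21 without IgG 2, the low library. Pfkl, the liver isoform, had 109.8 and 106 CPM in MAdCAM1 and 95.03 and 93.9 CPM in IgG, a small difference with little spread (log2 fold change 0.19, SE 0.13; edgeR adjusted p = 0.824). Pfkp made up 41.4% and 48.1% of the tags of the pair in MAdCAM1 and 44.5% and 26.8% in IgG. IgG 2 stood furthest apart in that share, with a Wilson interval of 24.95% to 28.8%.

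Further down the chain, Ldha and Aldoa were abundant in all 4 tumours, and Pgk1 had a lower level. Each was higher in both MAdCAM1 libraries, but Ldha and Aldoa overlapped with library size alone. Ldha, which turns pyruvate into lactate, reached 724 and 919 CPM in MAdCAM1 and 719 and 553 CPM in IgG. MAdCAM1 1 and IgG 1 were close, and MAdCAM1 2 and IgG 2 were the extremes (log2 fold change 0.37, SE 0.22; 0.19 without IgG 2). Aldoa, the aldolase that splits fructose-1,6-bisphosphate, had 540.3 and 582 CPM in MAdCAM1 and 532 and 363 CPM in IgG (log2 fold change 0.33, SE 0.24; 0.07 without IgG 2). A further row carries the name Aldoa with a different gene identifier (ENSMUSG00000114515) and overlaps the same locus. That row held 52 and 36 tags in MAdCAM1 and 41 and 26 tags in IgG and is kept out of the counts here. Pgk1, which makes the first ATP of the chain, had 60.2 and 60.1 CPM in MAdCAM1 and 52.0 and 51.0 CPM in IgG. The spread within each group was small, and the log2 fold change was 0.22 (SE 0.13; edgeR adjusted p = 0.785).

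Other enzymes of the chain overlapped between the groups. Pkm, whose product makes pyruvate, had 543 and 565 CPM in MAdCAM1 and 643 and 535 CPM in IgG, with the highest value in IgG 1. Gapdh, which oxidises glyceraldehyde-3-phosphate and is often used as a loading control, had 447 and 391 CPM in MAdCAM1 and 459 and 347 CPM in IgG. Tpi1, which interconverts the triose phosphates, had 512 and 562 CPM in MAdCAM1 and 517 and 496 CPM in IgG. For these 3 genes the log2 fold change lay between −0.09 and 0.08, and for Gapdh and Tpi1 it turned negative with library size alone (−0.044 and −0.012). Gpi1, the isomerase that makes fructose-6-phosphate, had 281 and 271 CPM in MAdCAM1 and 283 and 218 CPM in IgG. Eno1, the main enolase, had 120.2 and 128 CPM in MAdCAM1 and 140.2 and 93.2 CPM in IgG. Both had IgG 1 highest and IgG 2 lowest. Pgam1, a phosphoglycerate mutase, had 77.1 and 69.3 CPM in MAdCAM1 and 82.96 and 73.3 CPM in IgG, with overlapping groups. Gapdh and several other glycolytic genes have processed pseudogenes, and the treatment of tags with several matches is not given in the sources used here, so their levels carry that uncertainty.

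The brain and heart isoforms were minor and overlapped between the groups. Aldoc, the brain-type aldolase, had 17.9 and 15.7 CPM in MAdCAM1 and 17.6 and 27.3 CPM in IgG, and IgG 2 was the highest library. Ldhb, the heart-type subunit, had 34.2 and 12.6 CPM in MAdCAM1 and 15.5 and 30.5 CPM in IgG. Its high libraries were MAdCAM1 1 and IgG 2, 1 in each group. Ldhb made up 4.52% and 1.35% of the tags of Ldha and Ldhb in MAdCAM1 and 2.11% and 5.24% in IgG. Ldha thus supplied at least 94.8% of the tags of the pair in each tumour.

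The summed level of the 15 listed chain enzymes was 3727 and 3943 CPM in MAdCAM1 and 3763 and 3018 CPM in IgG. IgG 1 lay between the MAdCAM1 libraries and IgG 2 lay below all others. IgG 2 was the lowest library for 12 of these 15 genes, while over all genes tested it was the lowest for 30.1%. The 7 enzymes whose groups did not overlap were all higher in MAdCAM1 (Hk1, Hk2, Pfkl, Pfkp, Aldoa, Pgk1 and Ldha) and none was lower (46.7% and 0%, against 19.7% and 18.7% of all genes). With library size alone 3 were higher and 3 lower (20% each, against 13.6% and 28.7% of all genes), and Hk1, Pfkp, Aldoa and Ldha overlapped. The median log2 fold change of the chain was 0.14, and it was 0.07 without IgG 2.

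**Figure D1:**
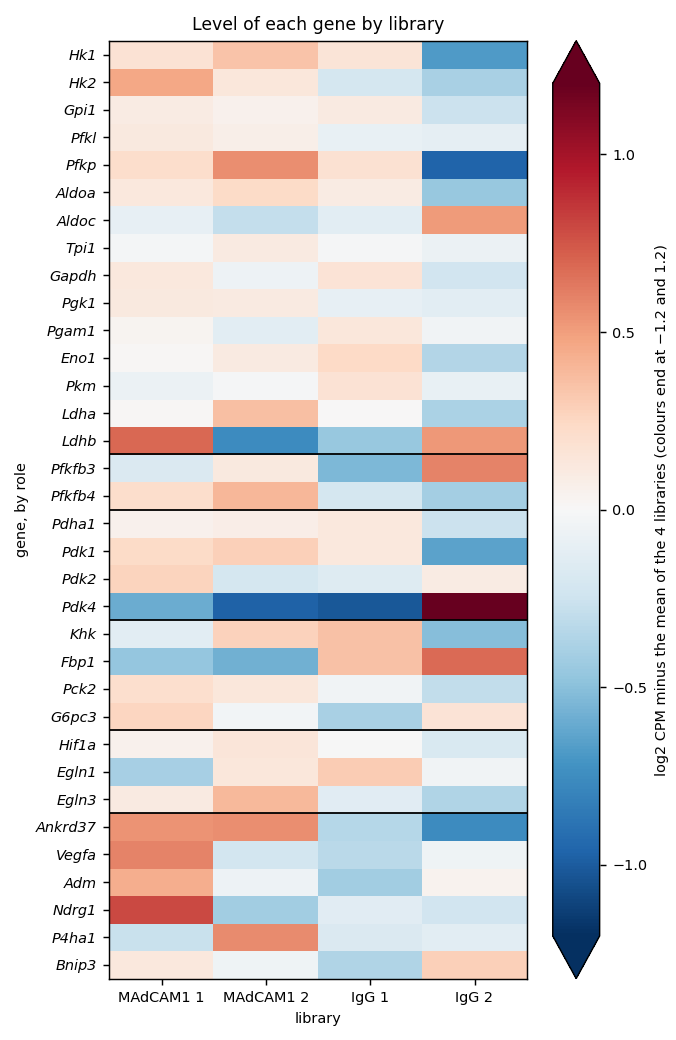
Level of the 34 genes in each library, as log2 CPM minus the gene's mean over the 4 libraries (colour), with the genes in rows by role and the MAdCAM1 libraries left of the IgG libraries. In the top block of 15 chain enzymes the IgG 2 column is the lowest for 12 genes, and Pdk4 stands out as high in IgG 2 alone.

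The regulators of phosphofructokinase set fructose-2,6-bisphosphate, the strongest activator of the chain. Pfkfb4 (chromosome 9, 108820832 to 108862847), a bifunctional isoform, had 11.5 and 13.1 CPM in MAdCAM1 and 8.54 and 7.48 CPM in IgG. The groups did not overlap, and the spread within each was small (log2 fold change 0.62, SE 0.24; edgeR adjusted p = 0.731). The value was between 0.52 and 0.71 with any library left out. Pfkfb3, the isoform with the strongest kinase activity, had 19.7 and 24.1 CPM in MAdCAM1 and 15.4 and 33.6 CPM in IgG, so that both IgG libraries lay outside the range of the MAdCAM1 libraries, 1 on each side.

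Pyruvate dehydrogenase admits pyruvate to mitochondria, and its kinases shut it. Pdha1, a catalytic subunit, had 107 and 108.8 CPM in MAdCAM1 and 112.5 and 86.4 CPM in IgG. Pdk1, the kinase induced by HIF-1, had 27.0 and 28.0 CPM in MAdCAM1 and 25.1 and 14.7 CPM in IgG, without overlap, but with a log2 fold change of 0.46 (SE 0.30) that was 0.12 without IgG 2. Pdk2 overlapped at 22.7 and 16.3 CPM in MAdCAM1 and 16.9 and 20.2 CPM in IgG.

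Pdk4 differed in 1 tumour. Pdk4 (chromosome 6, 5483097 to 5496339), the kinase of fasting and fatty acid use, had 37 and 31 tags in MAdCAM1 and 34 and 380 tags in IgG, that is 2.59 and 2.01 CPM in MAdCAM1 and 1.93 and 23.5 CPM in IgG. IgG 1 was level with the MAdCAM1 libraries and IgG 2 was far above them. The fitted log2 fold change of −2.46 (SE 1.23; edgeR adjusted p = 0.760) was 0.24 without IgG 2. In that library Pdk4 made up 40.2% of the tags of Pdk1, Pdk2 and Pdk4 (Wilson interval 37.1% to 43.4%) and Pdk1 25.2%. In the other libraries Pdk4 made up 4.96% and 4.34% in MAdCAM1 and 4.40% in IgG 1. Pdk3, a further kinase, had 351 and 403 tags in MAdCAM1 and 442 and 288 tags in IgG. It is not counted in these shares, which would be lower with it. IgG 2 also had more than IgG 1 of the fibroblast markers (756 against 241 CPM) and the macrophage markers (479.7 against 140.3 CPM). It had less of the smooth muscle markers (74.3 against 1332 CPM). MAdCAM1 2 had 1019 CPM of fibroblast and 488 CPM of macrophage markers, and MAdCAM1 1 had 88.3 CPM of smooth muscle markers. Neutrophil markers summed to 333 and 937 CPM in MAdCAM1 and 358 and 606 CPM in IgG. The part of these cell types in the Pdk4 value was not tested.

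**Figure D2:**
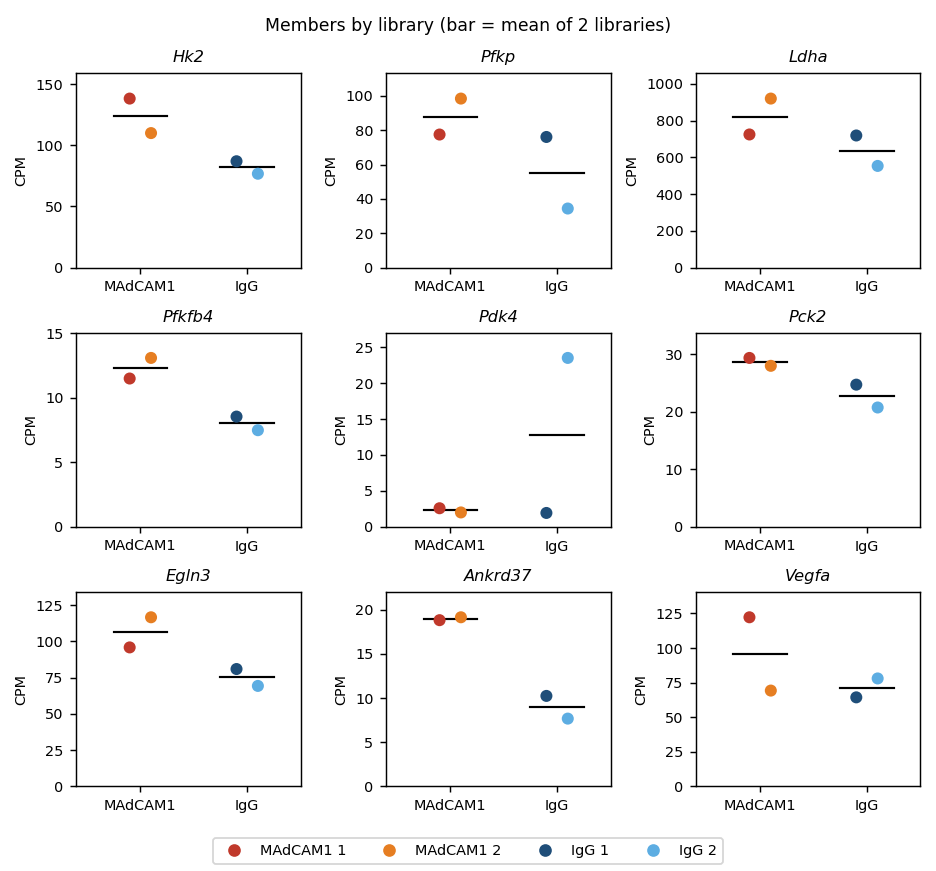
Level in CPM (y axis, linear from 0) of 9 genes in each library, MAdCAM1 left and IgG right, with points for libraries and bars for the mean of 2. Hk2, Pfkfb4, Egln3 and Ankrd37 show separate groups with a gap, Pfkp and Ldha are nearly level between MAdCAM1 1 and IgG 1, and Pdk4 is high in IgG 2 only, at 23.5 CPM.

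The 4 fructose and gluconeogenic enzymes of this gene set were low beside the tumour isoforms of glycolysis and gave no common direction. Khk, the kinase that begins fructose breakdown, had 60 and 86 tags in MAdCAM1 and 103 and 52 tags in IgG, or 4.20 and 5.57 CPM in MAdCAM1 and 5.86 and 3.22 CPM in IgG, with overlapping groups. Fbp1, a fructose-1,6-bisphosphatase that opposes phosphofructokinase, was barely detected, with 6 and 6 tags in MAdCAM1 and 13 and 15 tags in IgG. It was lower in both MAdCAM1 libraries, with a log2 fold change of −1.03 (SE 0.51; edgeR adjusted p = 0.760) that rests on these few tags. Pck2, the mitochondrial form of the enzyme that makes phosphoenolpyruvate from oxaloacetate, had 29.4 and 28.0 CPM in MAdCAM1 and 24.8 and 20.8 CPM in IgG, without overlap (log2 fold change 0.33, SE 0.18; edgeR adjusted p = 0.763), and the value was 0.21 without IgG 2. G6pc3, the widely expressed glucose-6-phosphatase, overlapped at 27.0 and 21.9 CPM in MAdCAM1 and 17.1 and 25.2 CPM in IgG.

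The 4 genes were set against 6 tumour isoforms, Hk2, Pfkp, Aldoa, Eno1, Pkm and Ldha, within each library. That name is a label for the set, since no untreated colon was measured for comparison. The fructose and gluconeogenic genes summed to 61.0 and 55.9 CPM in MAdCAM1 and 48.5 and 50.1 CPM in IgG. The tumour isoforms summed to 2143 and 2403.5 CPM in MAdCAM1 and 2197 and 1655.5 CPM in IgG. The first sum was 2.85% and 2.33% of the second in MAdCAM1 and 2.21% and 3.03% in IgG, so the groups overlapped for these 4 genes. Both this ratio and the score below leave out Fbp2, an isoform of Fbp1 that is not among the 4 genes. Fbp2 had 86.0 and 99.6 CPM in MAdCAM1 and 77.0 and 39.0 CPM in IgG. As a mean of log2 CPM, which weights each gene equally, the difference between the sets was −5.27 and −5.39 in MAdCAM1 and −5.17 and −4.72 in IgG. MAdCAM1 minus IgG was −0.39 on this scale, with an SD of 0.08 within MAdCAM1 and 0.32 within IgG (n = 2 each), and −0.006 as a log2 ratio of sums. The equal-weight score gives Fbp1, at 6 to 15 tags, the same weight as Ldha, at 8941 to 14203 tags, and without IgG 2 it was −0.16. No test was made of this score, because its genes were chosen with earlier results known.

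The oxygen sensor was led by Egln3 (chromosome 12, 54225767 to 54250673), the prolyl hydroxylase that is itself induced by HIF, whose promoter is printed above. It had 95.8 and 117 CPM in MAdCAM1 and 80.9 and 69.3 CPM in IgG. The groups did not overlap, with MAdCAM1 2 highest and IgG 2 lowest (log2 fold change 0.50, SE 0.17; edgeR adjusted p = 0.712), and the value lay between 0.35 and 0.63 with any library left out. Egln1, the main hydroxylase under normal oxygen, had 33.0 and 48.0 CPM in MAdCAM1 and 53.8 and 42.5 CPM in IgG and overlapped. Egln3 made up 74.4% and 70.9% of the tags of the pair in MAdCAM1 and 60.1% and 62.0% in IgG. Wilson intervals were 72.3% to 76.3% and 69.1% to 72.6% in MAdCAM1, and 58.1% to 62.0% and 59.7% to 64.2% in IgG, so the shares of the groups were apart by more than counting error, and they do not depend on the scaling. The intervals do not cover the spread between mice, and no test was made of this share. Egln3 was singled out above for its small p, so its share in part restates those values. Hif1a, the oxygen-sensitive subunit of HIF-1, had 485 and 519 CPM in MAdCAM1 and 466 and 413 CPM in IgG, a small difference without overlap (log2 fold change 0.19, SE 0.15; edgeR adjusted p = 0.851). The value was 0.10 without IgG 2, and with library size alone the groups overlapped. HIF-1α is controlled mainly through protein stability, which tag counts do not measure.

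Among the hypoxia targets, Ankrd37 (chromosome 8, 46449939 to 46458744), an ankyrin repeat gene induced by HIF-1, stood furthest apart. It had 269 and 296 tags in MAdCAM1 and 180 and 124 tags in IgG, or 18.8 and 19.2 CPM in MAdCAM1 and 10.2 and 7.67 CPM in IgG. The log2 fold change was 1.084 (SE 0.24; edgeR adjusted p = 0.665), the largest of the 34 genes and above that of 95.7% of all genes tested. It lay between 0.88 and 1.29 with any library left out. The adjusted p of Ankrd37 was 0.267 in edgeR's exact test, and DESeq2 gave 0.101.

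The other 5 hypoxia targets overlapped between the groups. Vegfa, the main vessel growth factor, had 122 and 69.2 CPM in MAdCAM1 and 64.3 and 78.0 CPM in IgG. Ndrg1, a stress-responsive gene of differentiating epithelium, had 83.5 and 36.1 CPM in MAdCAM1 and 44.0 and 41.2 CPM in IgG. Adm, which encodes the vasodilator adrenomedullin, had 8.75 and 6.21 CPM in MAdCAM1 and 4.84 and 6.68 CPM in IgG. In these 3 genes MAdCAM1 1 was the highest library and MAdCAM1 2 lay within or below the IgG range. P4ha1, a collagen prolyl hydroxylase subunit, had instead 24.9 and 44.6 CPM in MAdCAM1 and 26.7 and 27.5 CPM in IgG, with MAdCAM1 2 alone high. Fibroblast markers were also highest in MAdCAM1 2, at 1019 CPM, with 265 CPM in MAdCAM1 1 and 241 and 756 CPM in IgG. Their part in the P4ha1 value was not tested. Bnip3, a mitophagy receptor, had 48.7 and 43.3 CPM in MAdCAM1 and 34.9 and 54.5 CPM in IgG. The log2 fold change was positive for 6 of 6 targets (median 0.40), but for 5 of 6 with library size alone, and without MAdCAM1 1 it was positive for 3 of 6 with a median of 0.03.

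**Figure D3:**
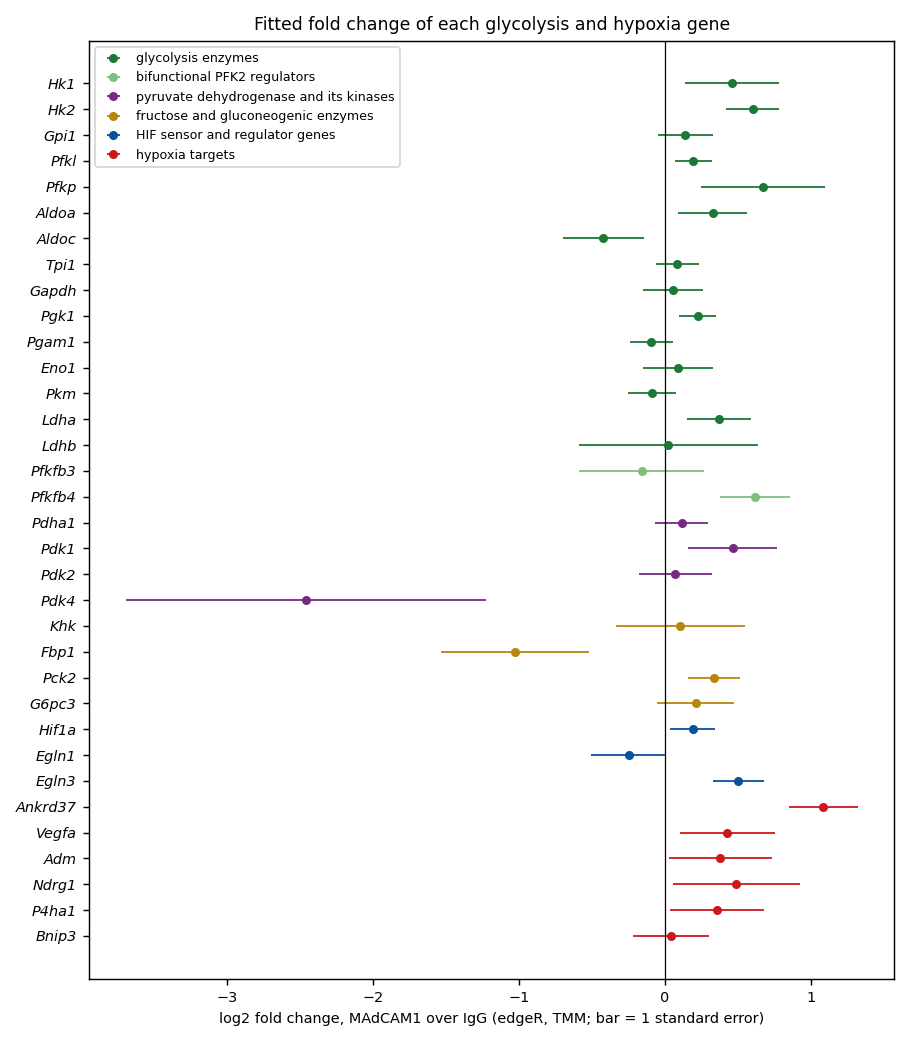
Fitted log2 fold change, MAdCAM1 over IgG (x axis), of the 34 genes in rows by role, with bars of 1 standard error. Ankrd37 is the furthest to the right at 1.084, Pfkp, Pfkfb4 and Hk2 follow with smaller values, and Pdk4 has the widest bar, at −2.46 with an SE of 1.23.

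A wider list of 78 genes of sugar transport, other isoforms, mitochondrial pyruvate entry, the pentose phosphate pathway and HIF had 66 genes in the table, all tested. The quasi-likelihood test called 0 of them, limma-voom 0, and the exact test and DESeq2 called the same 2, Eno3 and Car9 (2 of 66, against 1.12% of all genes by the exact test and 1.67% by DESeq2). Groups did not overlap for 22 that were higher (33.3%) and 8 that were lower (12.1%), against 19.7% and 18.7% of all genes. With library size alone the counts were 17 (25.8%) and 11 (16.7%), against 13.6% and 28.7% of all genes. The median log2 fold change was 0.05, and it was −0.05 with library size alone. By subset, the number higher and lower without overlap was 3 and 0 of 7 for transport, 5 and 1 of 9 for other glycolytic isoforms, 3 and 1 of 10 for pyruvate entry and 2 and 1 of 6 for fructose and gluconeogenesis. It was 3 and 1 of 7 for the pentose phosphate pathway, 3 and 2 of 7 for HIF subunits and regulators, and 3 and 2 of 20 for other hypoxia targets (15% and 10%), which is below the shares over all genes.

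Eno3 had the smallest p of the wider list. Eno3 (chromosome 11, 70546593 to 70553340), known as the muscle enolase, had 32.7 and 24.6 CPM in MAdCAM1 and 7.45 and 8.29 CPM in IgG, a log2 fold change of 1.86 (SE 0.23; edgeR quasi-likelihood adjusted p = 0.640, its exact test 0.000699, DESeq2 1.3e-05). Smooth muscle markers summed to 88.3 and 1489 CPM in MAdCAM1 and 1332 and 74.3 CPM in IgG. Colonocyte markers (1127 and 716 CPM in MAdCAM1, 389 and 226 CPM in IgG) were higher in the same libraries, and the part of either set in this value was not tested.

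Shares within an enzyme family do not depend on the scaling. Eno3 made up 21.4% and 16.1% of the tags of Eno1 and Eno3 in MAdCAM1 and 5.05% and 8.17% in IgG, with Wilson intervals of 14.7% to 23.2% over the MAdCAM1 libraries and 4.27% to 9.59% over the IgG libraries. These intervals cover counting error only, and no test was made of the share. Eno3 is named here for its small p, so its share restates the values that picked it. Fbp2, the bisphosphatase isoform known from muscle and picked out after its values were seen, supplied nearly all tags of the Fbp1 and Fbp2 pair, with 99.5% and 99.6% in MAdCAM1 and 99.1% and 97.7% in IgG. Its level was 86.0 and 99.6 CPM in MAdCAM1 and 77.0 and 39.0 CPM in IgG, again with IgG 2 lowest (log2 fold change 0.68, SE 0.37; edgeR adjusted p = 0.768), and the value was 0.26 without IgG 2 and 1.24 without IgG 1.

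**Figure D4:**
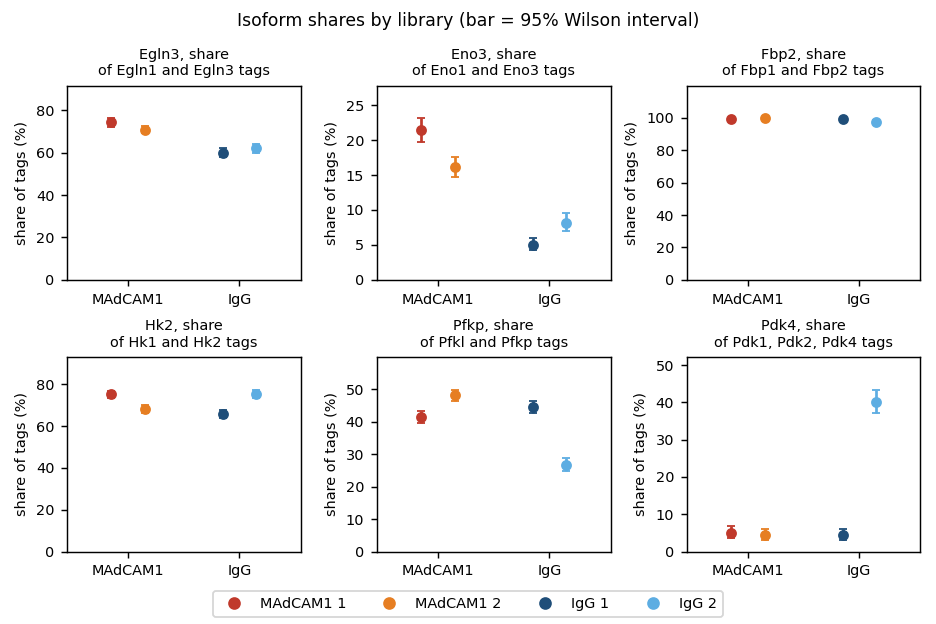
Share of tags (%, linear axis from 0) that 6 isoforms take in each library, with 95% Wilson intervals and MAdCAM1 left of IgG. Each share is taken among the genes named over its panel and not the whole enzyme family, and Pdk3 is left out. The intervals cover counting error only. The shares of Egln3 and Eno3 are higher in both MAdCAM1 libraries with separate intervals, Fbp2 is at least 97.7% in all 4, those of Hk2 and Pfkp overlap between the groups, and Pdk4 is high in IgG 2 only, at 40.2%.

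Transporters of glucose and lactate were among the next genes by p. Slc2a1, the main glucose importer of tumours, had 119 and 100.1 CPM in MAdCAM1 and 85.0 and 72.6 CPM in IgG (log2 fold change 0.48, SE 0.17; edgeR adjusted p = 0.717). Slc16a1, the carrier of lactate, pyruvate and butyrate, had 48.1 and 37.7 CPM in MAdCAM1 and 26.6 and 13.2 CPM in IgG (log2 fold change 1.11, SE 0.40; edgeR adjusted p = 0.718). Its value was 0.68 without IgG 2 and 1.69 without IgG 1. Pcx, the carboxylase that makes oxaloacetate from pyruvate, had 28.6 and 34.9 CPM in MAdCAM1 and 22.2 and 19.7 CPM in IgG. Adpgk, an ADP-dependent glucokinase, was the only gene of the 9 named by p that was lower, at 46.4 and 43.8 CPM in MAdCAM1 and 58.5 and 57.7 CPM in IgG (log2 fold change −0.36, SE 0.13; edgeR adjusted p = 0.718).

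Genes tied to HIF completed these 9. Car9, a carbonic anhydrase induced by hypoxia, had a log2 fold change of 1.39 (SE 0.21; edgeR quasi-likelihood adjusted p = 0.640, exact test 0.0203, DESeq2 0.00241), with 25.6 and 32.9 CPM in MAdCAM1 and 11.0 and 11.4 CPM in IgG. Cited2, an inhibitor of HIF that HIF induces, had 43.1 and 54.1 CPM in MAdCAM1 and 29.4 and 32.03 CPM in IgG. Epas1, which encodes HIF-2α, had 34.7 and 53.8 CPM in MAdCAM1 and 26.8 and 28.4 CPM in IgG, with a log2 fold change of 0.68 (SE 0.26; edgeR adjusted p = 0.731) that was 0.33 without MAdCAM1 2. Higd1a, a mitochondrial protein induced by hypoxia, had 119 and 129 CPM in MAdCAM1 and 91.7 and 96.2 CPM in IgG. For the 20 other hypoxia targets as a whole the median log2 fold change was 0.01 and 15 overlapped between the groups, with values from −1.33 to 1.39.

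**Figure D5:**
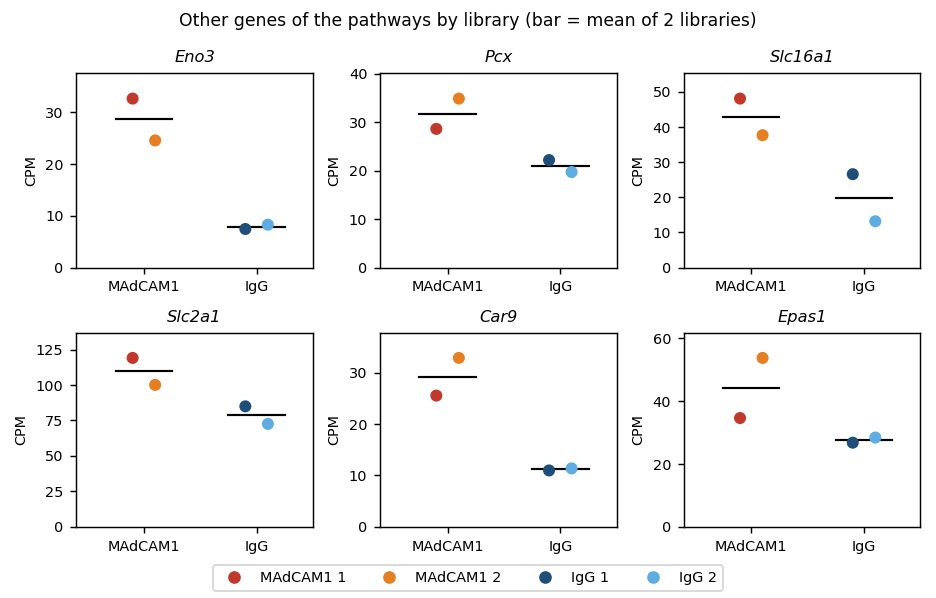
Level in CPM (y axis, linear from 0) of 6 other genes of these pathways in each library, MAdCAM1 left and IgG right, with points for libraries and bars for the mean of 2. All 6 have both MAdCAM1 libraries above both IgG libraries, with the widest gap on a fold scale for Eno3 (24.6 to 32.7 CPM against 7.45 to 8.29 CPM). They were taken from the 9 genes of the wider list with the smallest p, so the separation restates that choice. Adpgk, the lower one of the 9, is not shown. Of the 66 tested genes of that list, 22 were higher, 8 were lower and 36 overlapped.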

How the data were processed

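Per the labels' protocols, column-purified RNA with an integrity number above 7.0 was primed at random, selected by cap-trapping and sequenced as single ends of 75 nt. Per the submitters' processing notes, tags were mapped to GRCm39 with BWA 0.7.17 and HISAT2 2.0.5. Per the labels, the authors clustered tags with RECLU and dropped clusters under 0.1 CPM, those whose IDR reached 0.1, and those over 200 bp. The step that joins clusters into gene rows is not given in the sources used here. The deposited table holds raw counts of tags per gene, with 14850923 and 15895228 tags in the MAdCAM1 libraries and 16891234 and 15727936 in the IgG libraries, so 1 tag is 0.0569 to 0.0700 CPM and 3 tags, the limit a count of 0 allows, are 0.171 to 0.210 CPM.

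Counts were filtered with filterByExpr, scaled by TMM and fitted with edgeR 4.0.16 (robust quasi-likelihood F test, R 4.3.3), MAdCAM1 against IgG, with Benjamini-Hochberg adjustment over all 14331 genes and a threshold of 0.05. The test was checked on simulated data. Alternatives were other scalings and filters, each library left out, a replicate block, DESeq2 1.42.0, limma-voom (limma 3.58.1) and edgeR's exact test. Wilson intervals came from scipy 1.17.1. Gene positions are from GENCODE on GRCm39. Promoter windows are from RefSeq (build GRCm38.p6) and were placed on GRCm39 by exact match. Members and lists were chosen with earlier results of these data known. Named genes are all members, plus the 9 genes of the wider list with the smallest p. Fbp2, chosen after its values were seen, and Pdk3, a further kinase left out of the shares, are also named. Another gene of that list is not reported here.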

Additional observations from a re-analysis of the deposited data

How the results depend on the processing

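No gene of the 34 was called under any scaling, filter, library left out or test tried. Over all genes, the quasi-likelihood test called 0 in each direction under every scaling, filter and library left out and with the replicate block, and limma-voom called 0. DESeq2 called 219 higher and 20 lower, and the exact test 152 higher and 9 lower; the cause was not tested. The replicate numbers belong to different mice, deviations of same-numbered libraries had a correlation of −0.14, and the replicate block changed no call. Scaling by library size alone put the median over all genes at −0.10 (log2) and turned the sign of Tpi1 (−0.012), Gapdh (−0.044), Eno1 (−0.0098), Bnip3 (−0.055), Ldhb (−0.074) and Pdk2 (−0.027). Ldhb was also negative with upper quartile scaling (−0.00033), the replicate block (−0.064) and limma-voom (−0.075). With each library left out in turn, the log2 fold change ranged across 0 for Pkm (−0.22 to 0.035), Gapdh (−0.14 to 0.25), Gpi1 (−0.041 to 0.32), Eno1 (−0.18 to 0.40), Pdha1 (−0.068 to 0.30), Vegfa (−0.041 to 0.78), Ndrg1 (−0.24 to 0.97), Bnip3 (−0.26 to 0.39), P4ha1 (−0.12 to 0.72), Ldhb (−0.87 to 0.58), G6pc3 (−0.059 to 0.51), Pdk2 (−0.19 to 0.29), Pfkfb3 (−0.63 to 0.51), Khk (−0.27 to 0.59) and Pdk4 (−3.37 to 0.24). Such fits leave 1 library in a group, which is assumed to vary like the other group. The difference of the fructose and gluconeogenic set from the tumour glycolysis set was −0.39 as a mean of log2 CPM, −0.61 to −0.16 with a library left out, and −0.0062 as a log2 ratio of sums, and the cause was not tested. At 6 to 15 tags, the depth limits what can be said of Fbp1.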
